A study of Mus musculus with 41 samples.

Results

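The smooth muscle contractile genes examined here are the 10 genes Acta2, Actg2, Myh11, Cnn1, Tagln, Myl9, Mylk, Des, Tpm2 and Lmod1. They were chosen by name, and each was read from the probe of that gene name with the highest mean signal. They are 10 of the 30175 gene names on the array, and 9 of them are among the 20886 genes that passed the filter on low signal, which asked that both channels exceed a signal of 10 on at least 80% of arrays. Lmod1 did not pass, since both of its channels exceeded that signal on 17.1% of arrays.

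The RNA of 41 mammary tumors was measured on 2-color Agilent whole genome arrays, 1 array a tumor, each with Universal Mouse Reference RNA, made of pooled cell line RNA, in the other channel. Every tumor arose from a piece of mammary duct of a Trp53-null BALB/c female that had been placed in the cleared fat pad of a wild-type BALB/c female, so that the epithelium of every group lacked Trp53 while the host's stroma and vessels carried it. The hosts were fed a low fat diet throughout (LFD), a high fat diet throughout (HFD), a high fat diet in puberty and then a low fat diet (HFD-LFD), or the reverse order (LFD-HFD), and no group was without transplanted tissue. By histology, 29 tumors were epithelial, which is how the tumors of variable morphology in the labels were read, and 12 were spindle cell tumors. The epithelial tumors numbered 8 for LFD, 8 for HFD, 7 for HFD-LFD and 6 for LFD-HFD, of which 14 were early and 15 late in onset. The spindle cell tumors numbered 3 for each regimen, 3 early and 9 late. The age of each mouse is given here only as early or late onset. Trp53 itself read between -2.25 and 3.74 as log2 ratio in epithelial and between 0.08 and 1.95 in spindle cell tumors, and since the host's cells in every tumor carry the gene and the place of the probe relative to the disrupted part was not examined, this checks no label.

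Values are log2 of the Cy5 signal over the Cy3 signal, and a value below 0 means less signal in the tumor than in the reference. By the labels Cy5 is the tumor, whereas by the methods of the study it is the reference, so the direction used here is that of the labels and opposes the methods. The Y-linked genes Ddx3y and Eif2s3y, which tissue of females lacks, were brighter in Cy3 on 41 of 41 arrays, with median log2 ratios of -6.94 and -6.47. Of the other Y-linked genes read, Uty was brighter in Cy3 on 36 of 41 arrays (median -0.93) and Kdm5d on 16 (median 0.18). Should Cy5 hold the reference after all, every log2 ratio and every difference between groups in it changes sign. The channels named tumor and reference then change places, while each r between log2 ratios keeps its sign. Between 52.4% and 94.9% of spots were well above background in the tumor's channel of an epithelial array (median 73.8%), and between 59.1% and 72.7% of a spindle cell array (median 65.9%). The arrays lay on 11 slides scanned in 3 sessions, and since the session of the spindle cell tumors held no epithelial tumor, the part of the session and that of histology cannot be told apart. A further session held only 42L4B and 60L, both early HFD epithelial tumors. Their log2 ratios over genes had an SD of 2.04 and 2.1, above that of every other array. In their labels, the deposited matrix and the scanner files disagree on which of the HFD tumors 40R4A, 57R and 65R is which, and the scanner files' labels were used. The array of the early HFD tumor 60L had 22% of its spots marked as outliers, among them those of Acta2, Actg2, Cnn1, Tagln, Des and Tpm2, which were left out. A total of 3 tumor numbers in the labels are shared by 2 tumors each. The other tumors carry numbers of their own, and no label says whether any 2 tumors came from 1 mouse. In bulk tumor RNA, fewer cells of a type and less RNA per cell cannot be told apart.

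Smooth muscle shortens when myosin pulls on actin filaments, and the genes divide by what they do in that process. Acta2 and Actg2 encode the vascular and the enteric smooth muscle actins, Myh11 the smooth muscle myosin heavy chain, Myl9 its regulatory light chain, and Mylk the kinase that phosphorylates that light chain and so starts contraction. Tpm2 encodes a tropomyosin that lies along the filament, Cnn1 calponin, which binds actin and inhibits the myosin ATPase, and Tagln the actin-binding protein transgelin (SM22). Lmod1 encodes leiomodin, which nucleates actin filaments, and Des encodes desmin, the intermediate filament protein of all muscle. In the mammary gland these genes are known from the myoepithelial cells that squeeze milk from the ducts, from vessel walls, and, for Acta2 and Tagln, from activated fibroblasts. Many of them carry CArG boxes, the short A and T rich sites to which serum response factor binds.

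Promoters were read from RefSeq (GRCm38.p6), from 250 bases before to 50 bases after the gene start. An entry was found for 7 of the 10 genes, and for Actg2, Myh11 and Tagln none was. The promoters shown are those of Acta2 and Myl9, whose levels followed each other most closely over the epithelial tumors, of Cnn1, which followed both, and of Des, which followed none of them. Capitals mark CArG boxes and CArG-like boxes, the latter with a single G or C inside the A and T stretch, searched on both strands.
Acta2, chr19:34255324-34255623, minus strand:
Acta2: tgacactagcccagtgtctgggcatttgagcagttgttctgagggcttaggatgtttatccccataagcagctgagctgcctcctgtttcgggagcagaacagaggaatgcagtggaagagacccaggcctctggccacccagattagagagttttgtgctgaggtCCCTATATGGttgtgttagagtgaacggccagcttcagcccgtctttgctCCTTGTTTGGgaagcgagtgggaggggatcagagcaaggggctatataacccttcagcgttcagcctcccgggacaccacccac
Myl9, chr2:156775214-156775513, plus strand:
Myl9: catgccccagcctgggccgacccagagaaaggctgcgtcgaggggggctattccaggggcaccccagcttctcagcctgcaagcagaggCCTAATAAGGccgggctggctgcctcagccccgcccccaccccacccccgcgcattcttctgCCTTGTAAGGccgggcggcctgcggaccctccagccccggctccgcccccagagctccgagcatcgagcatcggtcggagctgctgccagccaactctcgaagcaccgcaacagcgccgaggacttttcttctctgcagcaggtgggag
Cnn1, chr9:22099003-22099302, plus strand:
Cnn1: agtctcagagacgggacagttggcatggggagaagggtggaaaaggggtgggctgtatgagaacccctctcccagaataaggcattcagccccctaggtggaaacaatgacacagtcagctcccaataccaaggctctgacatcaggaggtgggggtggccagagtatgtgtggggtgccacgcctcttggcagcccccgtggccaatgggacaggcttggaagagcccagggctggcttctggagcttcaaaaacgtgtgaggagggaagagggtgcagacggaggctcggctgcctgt
Des, chr1:75360042-75360341, plus strand:
Des: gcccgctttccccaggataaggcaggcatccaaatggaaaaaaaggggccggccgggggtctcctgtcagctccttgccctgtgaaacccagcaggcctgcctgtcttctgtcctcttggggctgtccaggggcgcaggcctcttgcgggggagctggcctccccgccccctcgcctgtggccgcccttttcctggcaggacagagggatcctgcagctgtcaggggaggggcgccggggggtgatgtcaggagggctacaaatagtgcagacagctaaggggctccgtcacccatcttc

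The Myl9 window held 1 CArG box, beginning 161 bases before the gene start, and 1 CArG-like box, beginning 99 bases before it. The Acta2 window held 2 CArG-like boxes, 84 and 34 bases before the start. Of all 32851 promoters of this length, 1.63% held a CArG box and 9.98% a CArG or CArG-like box. The windows of Cnn1, Des, Mylk, Tpm2 and Lmod1 held neither pattern, which says only that these letters are not in these windows.

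Read in the direction of the labels, most tumors held less signal than the reference for each of the 9 genes that passed the filter. The log2 ratio was below 0 in 40 of 40 tumors for Actg2, Myl9, Des and Tpm2, in 40 of 41 for Myh11 and Mylk, in 39 of 40 for Acta2, in 38 of 40 for Cnn1 and in 36 of 39 for Tagln. The tumor signal of all 9 probes was well above background on 41 of 41 arrays, and none was saturated. The question put to them was whether they differed with tumor histology, diet regimen or onset. By limma, which adjusted p over all genes tested, none of the 9 passed the threshold in any comparison, and the intervals below show how large a difference the tumors leave room for.

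**Figure D1:**
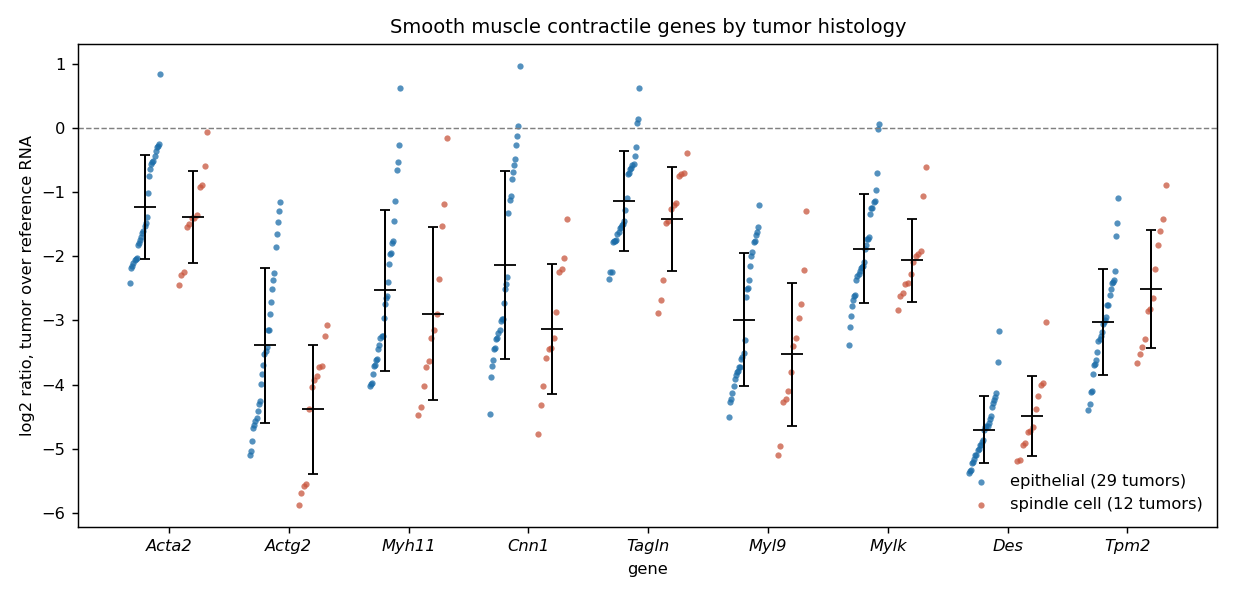
Log2 ratio of tumor over reference (vertical axis) of each of the 9 genes in every epithelial (blue) and spindle cell (red) tumor, with points sorted by value and the black bars giving the mean and 1 SD. Nearly all points lie below the dashed line at 0, and the histologies overlap for every gene.

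Spindle cell tumors were first set against epithelial tumors. Over all genes 20.2% were called at an adjusted p under 0.05, with 7.93% higher and 12.2% lower in spindle cell tumors, and 0 of the 9 contractile genes were called by limma. At an unadjusted p under 0.05 stood 2 of the 9, Actg2 and Cnn1, against 33.3% of all genes. The median difference of the 9 was -0.28, with 7 of 9 estimates below 0, beside a median of -0.07 over all genes tested, of which 56.9% were below 0. The count was also 7 of 9 under 12 of the 13 other settings, and 8 without M32L, M76R and M86R, where desmin was below 0 as well. The 9 genes share tumors, and their pairs had a median Pearson r of 0.58 over epithelial and 0.61 over spindle cell tumors. Counts of their signs, here and below, are therefore not counts of separate results. With each array centred on its median the calls over all genes were 1868 higher and 2122 lower in place of 1657 and 2556, from the authors' matrix 2166 and 2043, and without the filter 4261 and 3631.

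The filament genes came first. Actg2, the enteric actin (probe at chromosome 6, 83462904 to 83462963, build mm9), ran from -5.09 through a median of -3.5 to -1.15 as log2 ratio in 28 epithelial tumors. In the 12 spindle cell tumors it ran from -5.87 through -3.99 to -3.07. The ranges overlapped, although no spindle cell tumor lay above -3.07. The difference was -1.0 ± 0.39 (SE; 95% CI -1.78 to -0.22; limma adjusted p = 0.059). This was the nearest to the threshold among the 9, and Actg2 passed it under 7 of the 13 other settings, with adjusted p from 0.025 to 0.131 over them. Separated by channel, relative to each array's median signal, Actg2 differed by -0.92 in the tumor channel and by 0.07 in the reference channel on the log2 scale. The vascular actin Acta2 (probe at chromosome 19, 34316060 to 34316119, mm9) ran from -2.42 through a median of -1.51 to 0.83 in epithelial tumors and from -2.45 through -1.40 to -0.06 in spindle cell tumors. Its difference was -0.15 ± 0.27 (SE; 95% CI -0.69 to 0.38; adjusted p = 0.72), with nearly the whole range shared. By channel, Acta2 differed by -0.47 in the tumor and by -0.33 in the reference, so both signals were lower on the spindle cell arrays. Tpm2, the tropomyosin, had medians of -3.04 in epithelial and -2.74 in spindle cell tumors and differed by 0.51 (95% CI -0.07 to 1.09; adjusted p = 0.21), of which the tumor channel gave 0.20 and the reference channel -0.32. A second Tpm2 probe, which followed the first over epithelial tumors at r = 0.977, differed by 0.24.

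Among the regulators of the filament, Cnn1 (probe at chromosome 9, 21913058 to 21913117, mm9) ran from -4.45 through a median of -2.62 to 0.96 in 28 epithelial tumors and from -4.77 through -3.35 to -1.42 in the spindle cell tumors. The upper end of the epithelial range lay beyond that of the spindle cell tumors, and the lower ends lay close together. The difference was -0.99 ± 0.45 (SE; 95% CI -1.90 to -0.09; adjusted p = 0.11), of which the channels gave -1.31 in the tumor and -0.33 in the reference. Tagln differed by -0.28 (95% CI -0.82 to 0.26; adjusted p = 0.49), although its tumor channel was higher in spindle cell tumors by 0.11 and its reference channel by 0.37, so the sign of the ratio was that of the reference. In the motor group, Myl9 (probe at chromosome 2, 156607301 to 156607360, mm9) differed by -0.54 (95% CI -1.25 to 0.17; adjusted p = 0.29), Myh11 by -0.36 (95% CI -1.22 to 0.49; adjusted p = 0.58) and Mylk by -0.18 (95% CI -0.72 to 0.35; adjusted p = 0.67). Mylk is uncertain, since its second probe did not follow the first, with r = -0.068 over epithelial and -0.765 over spindle cell tumors, although both were well above background on 41 arrays. Desmin differed by 0.21 (95% CI -0.17 to 0.59, limma adjusted p = 0.45). Its tumor channel was lower in spindle cell tumors, at -0.21, and its reference channel differed by -0.44, so the sign of the ratio came from the reference.

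The tumor signal of Lmod1 was well above background on 4 of 41 arrays and its reference signal on 2. Replicates 2 and 4 of the late HFD-LFD epithelial tumors had tumor signals of 80.5 and 77.8, and on both arrays the reference was also well above background. The late LFD tumor 27L4A had 20.2 and the late LFD-HFD tumor 90R had 28.1, with the reference not well above background. All 4 were late epithelial tumors, and no spindle cell tumor was among them. The arrays of the HFD-LFD replicates had 92.6% and 94.9% of spots well above background, where the epithelial median was 73.8%. Those of 27L4A and 90R had 75.4% and 75%. The part of the array in this detection was not tested. With the filter left off, Lmod1 differed by 0.03 between spindle cell and epithelial tumors (limma adjusted p = 0.94), a value that rests on signals mostly near background.

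Genes that work beside the 9 were read from lists. Of 24 other cytoskeletal and contractile genes of smooth muscle, 23 were tested, and 3 were higher in spindle cell tumors and 2 lower, which is 5 of 23 beside the 20.2% of all genes called in this comparison. The higher genes were Actn1 by 0.81 (adjusted p = 0.0061), Vcl by 0.72 (adjusted p = 0.017) and Ckb by 0.57 (adjusted p = 0.039), which encode the actin crosslinker alpha-actinin, the adhesion protein vinculin and brain creatine kinase. Actn1 ran from -0.78 through 0.69 to 1.73 in epithelial and from 0.26 through 1.62 to 3.31 in spindle cell tumors, so that the groups overlapped in their middle. The lower genes were the integrin chain Itga8 by -1.45 (adjusted p = 0.034) and the Z-disc gene Ldb3 by -0.48 (adjusted p = 0.0013). The list's median was 0.01. Among 25 tested of 29 regulators of the program and of light chain phosphorylation, Tgfb1, a cytokine known to induce contractile genes in fibroblasts, was higher by 1.02 (adjusted p = 9.587e-05) and its receptor Tgfbr2 by 0.58 (adjusted p = 0.046). The myosin phosphatase subunit Ppp1r12a was lower by -0.43 (adjusted p = 0.013) and Mkl2, a coactivator of serum response factor, by -0.37 (adjusted p = 0.042). These are 4 of 25, again beside 20.2% of all genes, and the list's median was -0.10. Myocardin (Myocd), the smooth muscle coactivator of serum response factor, was well above background on 14 arrays only, and phospholamban (Pln) on 0.

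**Figure D2:**
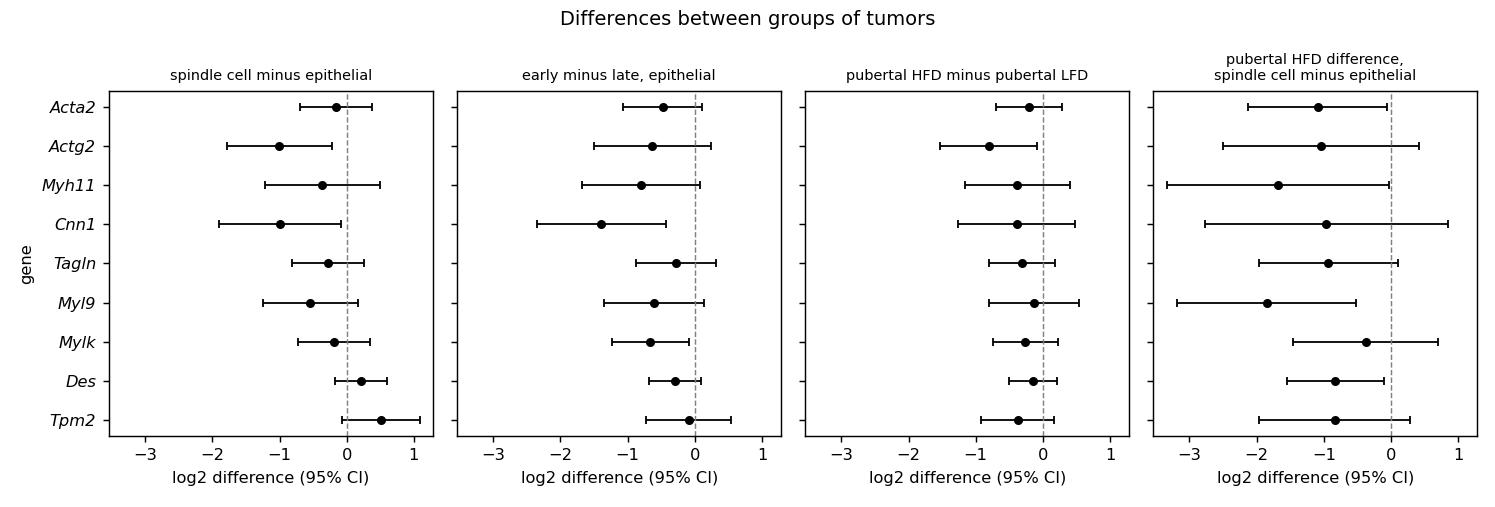
Log2 difference of each of the 9 genes (points) with its 95% confidence interval (bars) in 4 comparisons, from the fits across all genes. Intervals that leave out 0 belong to Actg2 and Cnn1 in the first panel, to Cnn1 and Mylk in the second, to Actg2 in the third and to Acta2, Myh11, Myl9 and Des in the last, and none of them had an adjusted p past its threshold.

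Diet was compared in 3 ways. Tumors of mice given HFD in puberty (HFD and HFD-LFD) were set against the rest (LFD and LFD-HFD), and over all genes 0.00958% were called at an adjusted p under 0.10. None of the 9 was called by limma, and 1 of 9 stood at an unadjusted p under 0.05, against 6.95% of all genes. All 9 estimates were below 0, with a median of -0.31, while 55.1% of all genes were below 0 with a median of -0.02. Most of the 9 followed each other from tumor to tumor, so these signs are not separate results. For Actg2 the 20 tumors with pubertal HFD ran from -5.87 through -4.34 to -1.15 and the other 20 from -4.68 through -3.46 to -1.47. The ranges overlapped. The difference was -0.81 (95% CI -1.53 to -0.08; adjusted p = 0.67). A fixed block for slide gave -0.50 (adjusted p = 0.9998). In the epithelial tumors alone only 5 of the 9 estimates were below 0 (median -0.02), with Acta2, Myh11, Myl9 and Des above 0. The count was 8 of 9 in the authors' matrix and with the fixed block for slide, where Cnn1 was above 0, and without the spindle cell tumors M32L, M76R and M86R, where Myl9 was.

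In the epithelial tumors alone, 0.474% of all genes were called over the 4 regimens, and none of the 9, whose adjusted p ran from 0.70 to 0.97 with 0 at an unadjusted p under 0.05. Acta2 ran from -2.42 through -1.92 to -0.30 in LFD, from -1.83 through -0.64 to -0.28 in HFD, from -2.15 through -1.38 to -0.26 in HFD-LFD and from -2.19 through -1.51 to 0.83 in LFD-HFD tumors. The 4 ranges overlapped, with the HFD range the narrowest. Between pairs of regimens the percentages of all genes called were 0 for HFD against LFD, 1.25 for HFD-LFD against LFD, 0 for LFD-HFD against LFD, 0.0287 for HFD-LFD against HFD, 0.263 for LFD-HFD against HFD and 0 for LFD-HFD against HFD-LFD. These pairs share tumors. In none of them was one of the 9 called by limma or at an unadjusted p under 0.05, and the smallest adjusted p was 0.54, for Tpm2 between HFD-LFD and HFD (-0.63, 95% CI -1.51 to 0.25).

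In the spindle cell tumors, with 3 for each regimen, 0% of all genes were called over the regimens by limma and 3.74% stood at an unadjusted p under 0.05, as did 2 of the 9, Acta2 and Actg2. Actg2 was -3.72, -3.25 and -3.07 in LFD tumors and -4.04, -3.93 and -3.70 in LFD-HFD tumors. It was -5.58, -4.37 and -3.86 in HFD tumors and -5.87, -5.69 and -5.54 in HFD-LFD tumors. The HFD-LFD tumors lay apart from LFD and LFD-HFD, and the HFD tumors reached from one to the other. The means of the regimens spanned 2.36 (F-test, unadjusted p = 0.0006, limma adjusted p = 0.98). All 3 HFD-LFD tumors were on 1 slide, whose only other tumor was the LFD tumor at -3.72, and the part of the slide in this result was not tested. Acta2 followed the same order of means, at -0.73 for LFD, -1.07 for LFD-HFD, -1.70 for HFD and -2.05 for HFD-LFD tumors (limma adjusted p = 0.98), and neighbours in this order overlapped.

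Whether pubertal HFD went with a different change in the histologies was tested by an interaction term. Over all genes 0.445% were called, and of the 9 none was called by limma while 4 stood at an unadjusted p under 0.05, against 12.2% of all genes. All 9 estimates were below 0, with a median of -0.96, where the median over all genes was 0.07 and 43.9% were below 0. As genes that followed each other over the same tumors, the 9 do not give separate signs. Centring each array on its median shifted the median of all genes to -0.04 and that of the 9 to -1.09, and normexp background correction shifted them to -0.08 and -1.19. Myl9, the light chain, ran from -5.09 through -4.18 to -3.27 in spindle cell tumors with pubertal HFD and from -4.22 through -2.85 to -1.29 in those without. In epithelial tumors it ran from -4.23 through -2.49 to -1.55 with pubertal HFD and from -4.50 through -3.58 to -1.20 without, so that the medians were ordered the opposite way. The interaction was -1.85 ± 0.66 (SE; 95% CI -3.18 to -0.52; adjusted p = 0.25). For desmin it was -0.83 (95% CI -1.56 to -0.10; adjusted p = 0.33), for Acta2 -1.09 (95% CI -2.12 to -0.06; adjusted p = 0.37) and for Myh11 -1.68 (95% CI -3.34 to -0.03; adjusted p = 0.40). With normexp background correction, Myl9 (-1.82, adjusted p = 0.097) and desmin (-1.33, adjusted p = 0.026) passed the threshold of 0.10. With that correction 2358 genes in all were called, 344 higher and 2014 lower, in place of 93 with 31 higher and 62 lower, and with centring 14 higher and 70 lower. The spindle cell tumors M32L, M76R and M86R were all from mice without HFD in puberty. On the first 2 of them the log2 ratios over genes had an SD of 1.29 and 1.48, against 1.65 to 1.78 on the other spindle cell arrays. Without these 3 tumors Myl9 gave -1.35 (adjusted p = 0.82), and 8 of the 9 estimates were below 0, Mylk being above it. The pericyte marker Cspg4 (-1.58, adjusted p = 0.070) and the fibroblast marker Fap (-1.71, adjusted p = 0.044) were called in the same interaction, and the medians of the marker lists were all below 0, at -0.98 for myoepithelial and basal genes (9 of 10 below 0), -0.96 for endothelial (8 of 8), -0.49 for pericyte (6 of 9), -1.48 for fibroblast (10 of 12), -3.34 for adipocyte (6 of 6), -0.63 for luminal (6 of 8), -0.30 for skeletal muscle (13 of 15) and -0.39 for macrophage genes (6 of 7). The part of these cells in the values of the 9 was not tested.

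**Figure D3:**
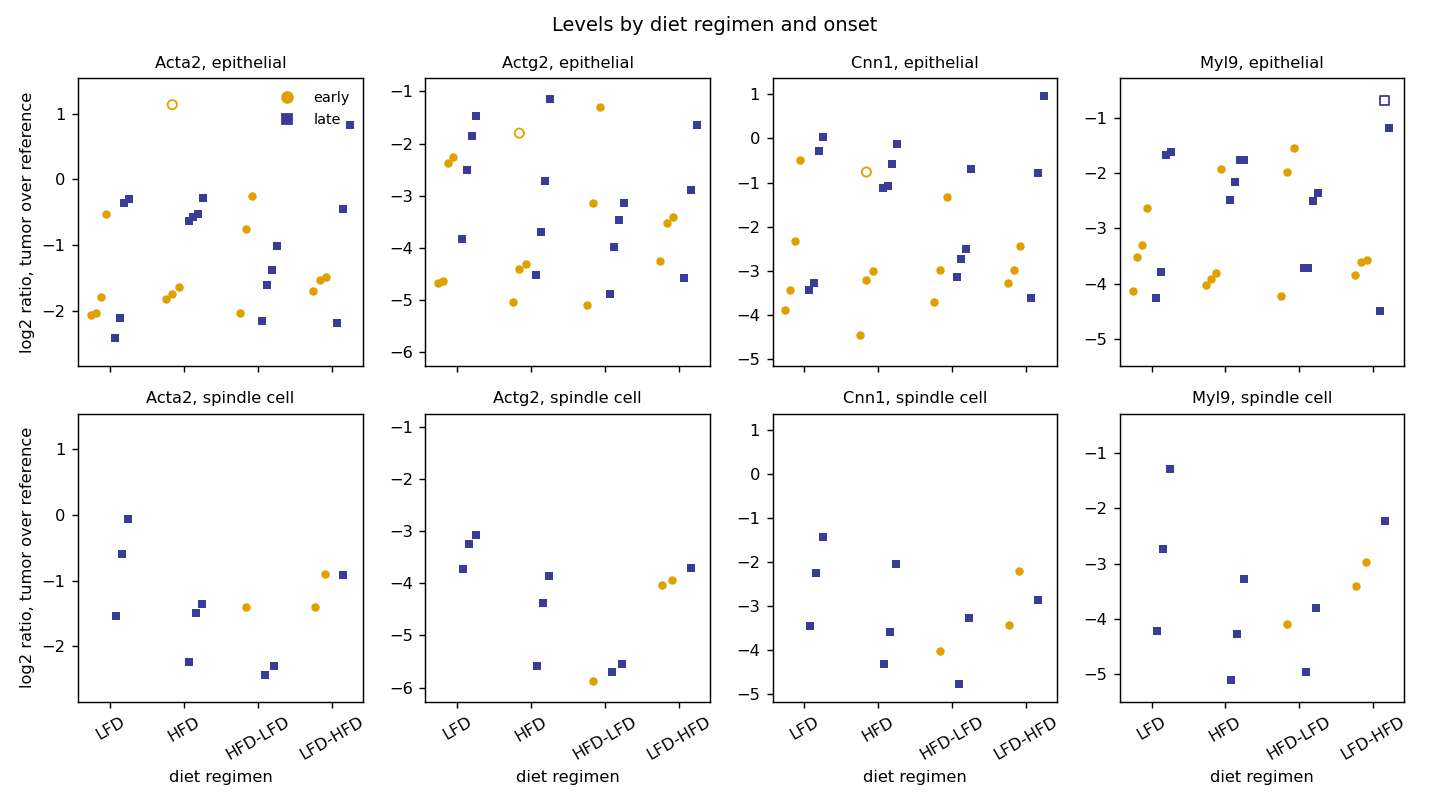
Log2 ratio of tumor over reference (vertical axis) of Acta2, Actg2, Cnn1 and Myl9 by diet regimen (horizontal axis) in epithelial (top) and spindle cell (bottom) tumors, 1 point a tumor, circles for early and squares for late onset, with open symbols for spots marked as outliers and left out of the tests. In the HFD epithelial tumors the late squares lie above the filled early circles for Cnn1 and Acta2, and in the bottom row Actg2 is between -5.87 and -5.54 in the HFD-LFD tumors.

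Onset was compared in epithelial tumors, early against late. Over all genes 0.144% were called at an adjusted p under 0.10, and none of the 9 by limma. At an unadjusted p under 0.05 stood 2 of 9, Cnn1 and Mylk, against 13.2% of all genes, and all 9 estimates were below 0, against 47.8% of all genes. The median of the 9 was -0.61 and that of all genes 0.01. Here too the signs are not separate results, since most of the 9 followed each other. Cnn1 ran from -4.45 through -3.01 to -0.48 in 13 early tumors and from -3.61 through -1.07 to 0.96 in 15 late ones, which overlapped over most of their length. The difference was -1.39 ± 0.47 (SE; 95% CI -2.35 to -0.43; adjusted p = 0.21). Mylk differed by -0.66 (95% CI -1.24 to -0.08; adjusted p = 0.32), Myh11 by -0.80 (95% CI -1.68 to 0.07; adjusted p = 0.42), Myl9 by -0.61 (95% CI -1.35 to 0.13; adjusted p = 0.47) and Acta2 by -0.48 (95% CI -1.07 to 0.11; adjusted p = 0.48). Tpm2 differed by -0.09 (95% CI -0.72 to 0.53; adjusted p = 0.93). For Mylk the value is that of the chosen probe, which its second probe did not follow over epithelial tumors (r = -0.068). A fixed block for slide, which rests on the 3 slides that carried early and late epithelial tumors together, gave Cnn1 -2.14 (adjusted p = 0.50), and the matrix's labels for 40R4A, 57R and 65R gave it -0.95 (adjusted p = 0.49). All 9 estimates stayed below 0 under every other setting on all regimens apart from Tpm2 without or under the matrix's labels of those 3 tumors and Des with the fixed block. Without 42L4B and 60L, 2 of all genes were called in place of 30, and the median of the 9 was -0.49.

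Within each regimen, a comparison chosen after the values had been seen, early and late tumors did not overlap for 5 of the 9 genes in HFD, where this held for 8.08% of all genes. The 5 were Acta2, Cnn1, Tagln (2 early tumors measured), Mylk and Tpm2, each lower in the early tumors. It held for 1 of 9, Myh11, in LFD-HFD (10.3% of all genes), for 0 in LFD (6.05%) and for 0 in HFD-LFD (7.72%). In HFD, Mylk had 4 early values, Acta2, Cnn1 and Tpm2 had 3 and Tagln had 2. Fewer values separate more readily, and the share over all genes was not matched for their number. Most of the 5 genes also followed each other, so they are not separate results. Cnn1 was -4.45, -3.20 and -3.01 in the early and -1.12, -1.07, -0.57 and -0.13 in the late HFD tumors, a difference of -2.83 ± 0.97 (SE; limma adjusted p = 0.18). Acta2 was -1.83, -1.74 and -1.64 in the early and -0.64, -0.57, -0.52 and -0.28 in the late HFD tumors, a difference of -1.23 ± 0.58 (SE; limma adjusted p = 0.30). The remaining early HFD tumor, 60L, had outlier spots for Cnn1, Acta2, Tagln and Tpm2, and its left out values of -0.76, 1.14 and -1.84 for Cnn1, Acta2 and Tpm2 would make the groups overlap. Mylk includes 60L, and ran from -3.39 to -2.09 in the early and from -1.83 to -1.15 in the late HFD tumors (limma adjusted p = 0.34). This rests on the chosen Mylk probe, which the second probe did not follow over epithelial tumors (r = -0.068). Under the onset labels of the matrix the differences of Cnn1 and Acta2 were -1.04 (adjusted p = 0.74) and -0.54 (adjusted p = 0.76). Those labels make 57R early and 65R late, and early and late HFD tumors then overlap for each of the 5 genes. Mylk, for one, was -1.15 in 57R and -2.16 in 65R. In HFD-LFD tumors only 3 of the 9 estimates were below 0, and Acta2 gave 0.53 (adjusted p = 0.89), and the test of whether the onset difference varied with regimen called none of the 9 (Cnn1, adjusted p = 0.81). In LFD tumors Cnn1 gave -0.79 (adjusted p = 0.87) and in LFD-HFD tumors -1.75 (adjusted p = 0.9999). No slide carried both early and late tumors of LFD, or of HFD-LFD, so onset and slide cannot be told apart within these regimens.

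In spindle cell tumors, with 3 early and 9 late, 0% of all genes were called between early and late by limma and 2.03% stood at an unadjusted p under 0.05, as did 0 of the 9. Their median difference was 0.06, with 5 above 0 and 4 below. Cnn1 was -4.02, -3.42 and -2.20 in the early tumors and ran from -4.77 through -3.27 to -1.42 in the late ones, and the difference was -0.11 (95% CI -1.50 to 1.28; adjusted p = 1). The interaction of onset with histology called 0.00479% of all genes and none of the 9. Here 0 of the 9 and 3% of all genes stood at an unadjusted p under 0.05. For Cnn1 it was 1.28 (95% CI -0.57 to 3.14; limma adjusted p = 0.9999), so that a difference between the histologies was not detectable with these numbers of tumors.

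The tumors differed widely from each other. The SD over epithelial tumors was 1.46 for Cnn1, 1.26 for Myh11, 1.21 for Actg2 and 1.03 for Myl9, which put them at the 96.9th, 94.3rd, 93.3rd and 88.3rd percentile of all genes tested. The median SD over all genes was 0.56. Desmin varied by 0.52, at the 45.2nd percentile. The reference is the same RNA throughout, and the SD of its channel ran over the 9 genes in epithelial tumors from 0.19 for Tagln to 0.58 for Myl9 and 0.61 for Mylk. In the tumor channel the same 3 genes had 0.71, 1.15 and 0.89, and for each of the 9 it was the larger.

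Each tumor was summarised by the median, over the 9 genes, of its deviation from the gene's median in all tumors. The late LFD-HFD tumor 90R stood at 1.98 and the late LFD tumor 27L4A at 1.78. In 90R the log2 ratios were 0.83 for Acta2, 0.96 for Cnn1, 0.62 for Tagln and -0.03 for Mylk, so the first 3 exceeded the reference, while desmin was at -5.16. In 27L4A Cnn1 was 0.03 and Mylk 0.06, while desmin was at -5.21. Both are among the 4 tumors whose Lmod1 signal was well above background. At the other end the spindle cell tumor M128L stood at -1.06, the spindle cell tumor M63L at -0.80 and replicate 1 of the early HFD-LFD epithelial tumors at -0.79. By group the median of this value was -0.18 in early and 0.81 in late epithelial tumors, with ranges of -0.79 to 1.52 and -0.75 to 1.98. The tumor at 1.52 is 60L, of which only 3 genes were measured.

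**Figure D4:**
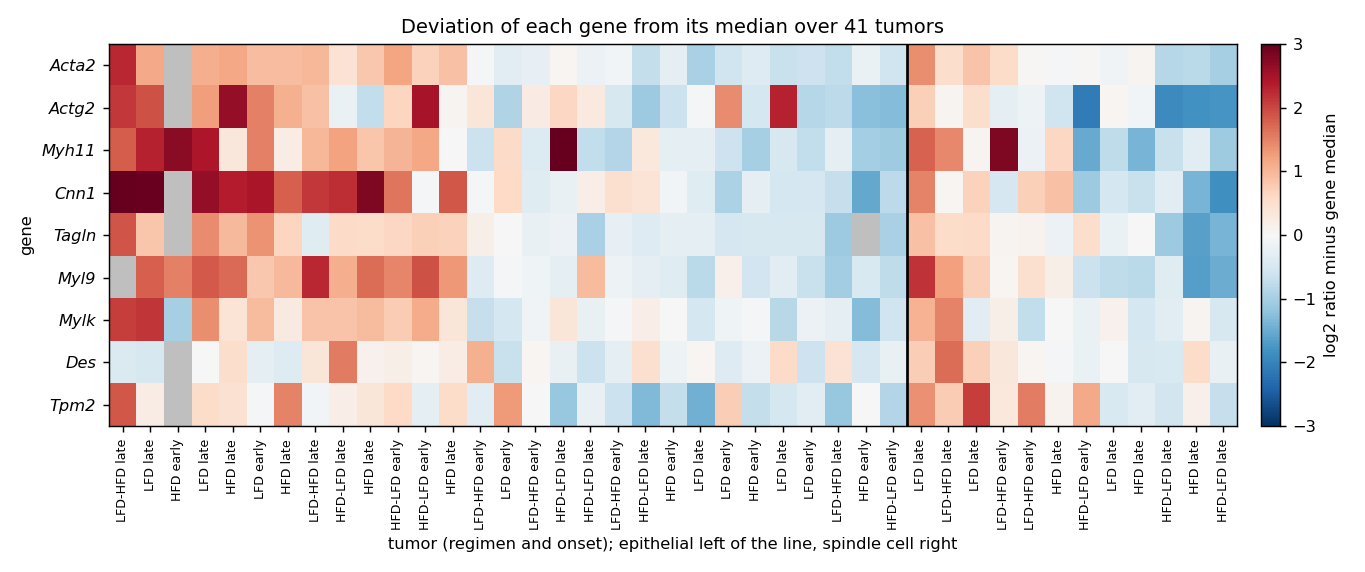
Deviation of each gene (rows) from its median over the 41 tumors, in log2 units from blue (below) to red (above), for every tumor (columns, named by regimen and onset), with epithelial tumors left of the line and spindle cell tumors right of it, each sorted by median deviation and spots left out as outliers in grey. Red columns at the left run through Acta2, Actg2, Myh11, Cnn1, Tagln, Myl9 and Mylk, and the desmin row stays pale in them.

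Most of the genes followed each other from tumor to tumor, Tpm2 and Actg2 less closely, and desmin stood apart in epithelial tumors. Over the epithelial tumors the 36 pairs had a median Pearson r of 0.58, from -0.215 to 0.904, with 23 pairs above 0.5. The highest were Acta2 with Myl9 at 0.904 (27 tumors), Acta2 with Cnn1 at 0.882, Acta2 with Tagln at 0.869 and Cnn1 with Mylk at 0.841. Desmin had r from -0.215 to 0.122 with the other 8 genes. Leaving desmin aside, Tpm2 had r from 0.252 with Myh11 to 0.683 with Acta2, and Actg2 from 0.39 with Tpm2 to 0.583 with Acta2. Over the 12 spindle cell tumors the median was 0.61, from 0.168 to 0.914, with 26 pairs above 0.5. There Acta2 and Tagln stood at 0.914 and desmin followed Mylk at 0.808. The values share arrays and reference, so these r are descriptions without a test, and whether the place of desmin differed between histologies was not tested.

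**Figure D5:**
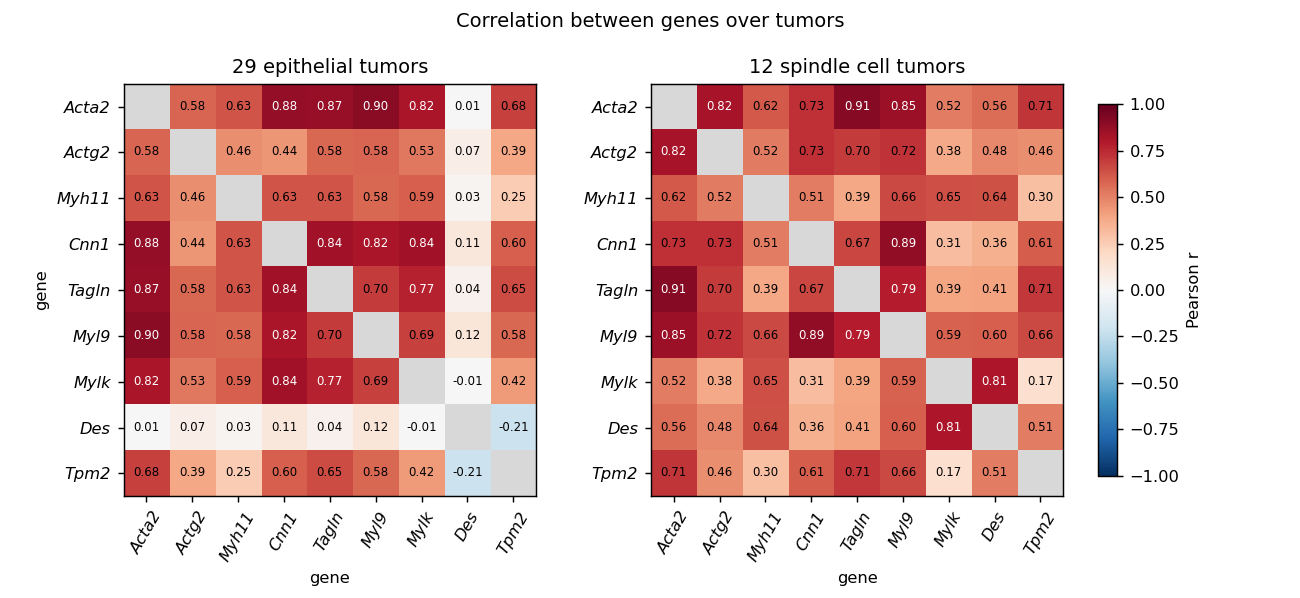
Pearson r between each pair of the 9 genes over epithelial tumors (left) and spindle cell tumors (right), printed in each cell and colored from blue (-1) to red (1). The desmin row is pale on the left, between -0.215 and 0.122, and red on the right.

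Among 15120 genes with a symbol, the nearest to Acta2 over the epithelial tumors were Myl9, Cnn1 and Tagln, in that order. The nearest to Tagln were Acta2, Cnn1 and Mylk, and those to Cnn1 were Acta2, the Wnt ligand Wnt6 (r = 0.87) and Mylk. Myl9 was followed by Acta2, the acetylcholine receptor anchor Rapsn (r = 0.849) and the laminin chain Lama1 (r = 0.822), and Mylk by Cnn1, the potassium channel partner Kcnip3 (r = 0.833) and the neurotrophin receptor Ntrk3 (r = 0.831). The remaining 4 had no other of the 9 among their nearest 3. Myh11 was closest to Ccdc151 (r = 0.818), the Wnt agonist Rspo1 (r = 0.784) and the Wnt and BMP antagonist Sostdc1 (r = 0.771), with Tagln at rank 64. Actg2 was closest to Nudt3 (r = 0.687) with Acta2 at rank 28, and Tpm2 to Dennd2c (r = 0.787) with Acta2 at rank 31. Desmin was closest to Dhrs7c (r = 0.907), Cacng1 (r = 0.89), a calcium channel subunit, and Ckmt2 (r = 0.885), the sarcomeric mitochondrial creatine kinase. The best placed of the other 8 for desmin was Myl9, at rank 4085.

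Markers of cells that could carry these genes were read beside them. The epithelial markers of the labelled tissue were present, with 8 of 8 luminal and 9 of 10 myoepithelial and basal genes well above background on all arrays, and 8 of 9 pericyte, 12 of 12 fibroblast, 7 of 8 endothelial, 12 of 15 skeletal muscle, 5 of 7 adipocyte and 6 of 8 macrophage genes. Between spindle cell and epithelial tumors 4 of 12 fibroblast markers were higher, with Col1a2 by 1.23, Col1a1 by 1.22 and Col3a1 by 1.20, and 4 of 8 endothelial markers, beside the 7.93% of all genes called higher, with Cldn5 by 1.0, Pecam1 by 0.87 and Esam by 0.84. The other lists held no more calls than 2 each, beside 20.2% of all genes. Of 9 pericyte markers Pdgfrb was higher by 0.92 and Cox4i2 lower by -0.58. Of 7 tested macrophage markers Cd163 was higher by 1.95, and of 15 skeletal muscle markers Mb and Mylpf were lower by -0.69 and -0.58. None of 10 myoepithelial and basal, 8 luminal or 6 tested adipocyte markers was called by limma, with 3, 5 and 0 at an unadjusted p under 0.05. The limma adjusted p of the genes named ran from 5.478e-07 for Cd163 to 0.037 for Cox4i2. In every other comparison no gene of these lists was called, apart from Cspg4 and Fap above.

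The summed level of each list, as log2 signal over the array's median, was set beside the tumors' median deviation of the 9 genes. The myoepithelial and basal sum ran from 6.85 through 7.61 to 9.85 in epithelial and from 5.69 through 7.38 to 10.3 in spindle cell tumors. The median deviation of its genes had r = 0.441 with that of the 9 over epithelial tumors, and 0.336 over spindle cell tumors. The pericyte sum ran from 5.13 through 5.75 to 8.03 and from 5.63 through 6.15 to 6.79, with r = 0.213 and 0.59. The fibroblast sum ran from 7.35 through 8.16 to 9.47 and from 7.60 through 9.31 to 10.4, with r = -0.045 and 0.768. The endothelial sum ran from 2.81 through 3.67 to 5.82 and from 3.01 through 4.05 to 6.19, with r = 0.307 and 0.763. In epithelial tumors the luminal list had r = -0.307, the skeletal muscle list -0.21, the adipocyte list 0.04 and the macrophage list -0.026, and in spindle cell tumors 0.08, 0.495, 0.744 and 0.225. Their sums overlapped between the histologies. These r are of a list's median deviation, in which a bright gene counts no more than a faint one. Those of the summed level were 0.388 for the myoepithelial and basal, 0.387 for the pericyte, -0.069 for the fibroblast and 0.423 for the endothelial list over epithelial tumors, and 0.323, 0.499, 0.676 and 0.742 over spindle cell tumors, so the order of the lists in epithelial tumors depended on the measure. For single genes over epithelial tumors, the lowest 5% of all genes tested had r below -0.422 with the median deviation of the 9. The highest 5% had r above 0.45. The part of any of these cell types in the levels of the 9 genes was not tested.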

How the data were processed

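RNA of 41 mouse mammary tumors was hybridized with a common reference on 41 2-color Agilent arrays of 43020 gene spots and 39429 probes. As deposited, the scanner files hold the intensity of each spot in both channels, background subtracted and dye normalized by Feature Extraction (8.5.1.1 per the labels, 11.0.1.1 for epithelial and 10.5.1.1 for spindle cell tumors per the file headers). The authors also deposited a matrix of log2 ratios, Lowess normalized, filtered and imputed, which served as an alternative. Its columns had medians of -0.039 to 0.05. Each followed the log2 ratios of its best matching scanner file with r of 0.872 to 0.98 and slopes of 0.627 to 0.895. The direction of the matrix is thus that used here, and its values sit near 0. For 40R4A, 57R and 65R the best file was that of another tumor, and r with the file of the same label was 0.821, 0.759 and 0.837.

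Here log2 of the processed Cy5 over the processed Cy3 intensity was taken, outlier spots were left missing, spots of a probe were averaged, and a gene was read from its probe of highest mean signal. Genes whose channels both passed 10 on 80% of arrays were tested with lmFit and eBayes of limma 3.58.1 in R 4.3.3 (statmod 1.5.0), with Benjamini-Hochberg adjustment over all genes. The threshold was 0.05 for spindle cell against epithelial tumors and 0.10 otherwise. SAM, the study's test, was not used. Confidence intervals of 95% are limma's. The code was tested on simulated data.

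The 10 members and the gene lists were chosen with earlier results of these data known. The list genes named are, among those called, up to 3 each way with the largest difference for histology and up to 2 elsewhere. Nearest genes are the 3 with the highest Pearson r over epithelial tumors. Promoters came from RefSeq (GRCm38.p6) and were used for sequence only, while probe positions are those of the array (mm9). Alternatives changed background correction, centring, filter, outlier spots, probe choice, slide block, labels and tumors. The number of arrays limits the precision, and p-values measure the spread between tumors, whose separate origin the labels do not state.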

Additional observations from a re-analysis of the deposited data

Results flagged for a closer look

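The values of the 9 genes were examined in 75 groups of 4 to 10 tumors, by gene, histology, regimen and onset, for a tumor far from the rest of its group. A total of 3 groups held one, and chance gives about 1 in 20. Myl9, the myosin light chain, had a log2 ratio of -1.195 in replicate 1 of the late LFD-HFD epithelial tumors, where the nearest of the 5 epithelial LFD-HFD values was -3.576. The spot of tumor 90R, which belongs to the same regimen, was left out there as an outlier, and its value would have been -0.69. In the early HFD epithelial tumors Myl9 was -1.934 in tumor 60L, and the nearest of the 4 values was -3.809. The array of 60L is the one with 22% outlier spots. Tpm2, the tropomyosin, was -1.484 in the late HFD epithelial tumor 66L, and the nearest of the 4 values was -2.418.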

How the results depend on the processing

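Under the main setting none of the 9 genes was called in any comparison. For spindle cell against epithelial tumors the count was 1, Actg2, with normexp background correction, without the filter, with outlier spots kept, from the authors' matrix, without M32L, M76R and M86R, without 40R4A, 57R and 65R, and without 42L4B and 60L. It was 0 under the other 6 settings, and 0 to 1 with 1 tumor left out in turn, when 7 omissions gave the call, at an adjusted p down to 0.037 (early HFD-LFD replicate 1, late HFD-LFD replicate 2, early LFD replicates 2 and 3 and early HFD replicate 2 of the epithelial tumors, and late LFD replicates 2 and 3 of the spindle cell tumors). For the interaction of pubertal HFD with histology it was 2, Myl9 and Des, with normexp. In every other comparison it was 0 under each setting run. Over all genes the 4213 calls between histologies ranged from 2355 to 7892, the 2 for pubertal HFD from 0 to 21, the 30 for onset in epithelial tumors from 0 to 59, the 99 for regimens in epithelial tumors from 0 to 235, the 322 over their pairs from 6 to 823, the 93 of the diet interaction from 16 to 2358 and the 1 of the onset interaction from 0 to 14. With 1 tumor left out, onset in epithelial tumors gave from 0 (without early LFD replicate 3) to 289 (early HFD-LFD replicate 2), their regimens from 15 (late HFD-LFD replicate 4) to 193 (late LFD replicate 1), their pairs from 125 (late HFD-LFD replicate 1) to 598 (late LFD replicate 1), the regimens in spindle cell tumors up to 12 (spindle cell early LFD-HFD replicate 1), the diet interaction from 6 (spindle cell late LFD-HFD replicate 1) to 498 (spindle cell late LFD replicate 1), the onset interaction from 0 to 3, pubertal HFD from 2 to 4 and the histologies from 3308 to 4679. The causes were not tested. A fixed block for slide could not be fitted for the regimens in epithelial tumors. The number of tumors and the brightness of Lmod1 over background limit what could be seen.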
